A study of Mus musculus with 2 samples.

Results

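The complement system of primary mouse hepatocytes was followed through 31 genes of its components and regulators, in cells that received the liver X receptor (LXR) agonist GW3965 or its solvent DMSO. The genes were taken by symbol from the 36808 genes of the deposited table, and all 31 were found. Clusterin (Clu) was listed at 0 in both libraries with HIDATA, the mark for a locus that holds too many fragments. That entry is a failed estimate and was left out, so that 30 genes were used. Of these, 26 reached an FPKM (fragments per kilobase of transcript, scaled to the mapped fragments of the library) of 1 in either library. C6, C8a and Cd46 stayed under 1 in both, and Cfd, the protease adipsin of the alternative pathway, was listed at 0 in both.

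The hepatocytes came from C57Bl6 mice and were cultured in William E medium with serum, insulin and dexamethasone in both groups. One culture group received 1 µM GW3965 and the other received DMSO. Each condition had 1 library, so the differences lack a replicate check and none of them was tested. The library set against DMSO bears the name GL in the deposited table. It was taken for GW3965, the 1 treated group of the labels, and this reading is not certain. The sources used here give neither the number of mice nor the length of treatment.

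Steps between low FPKM values placed the depth at about 78542100 fragments for GW3965 and about 63284200 for DMSO. The LXR targets Abca1, a cholesterol exporter, and Scd1, a desaturase, served as a check of the treated library. Abca1 stood at 81.1 FPKM in GW3965 and 14.6 FPKM in DMSO, and Scd1 at 980 FPKM in GW3965 and 206 FPKM in DMSO. Hepatocyte markers were abundant in both libraries, with Hpx at 6879 FPKM in GW3965 and 6919 FPKM in DMSO. Markers of other liver cells were present as well. The 23 macrophage markers in the table summed to 286 FPKM in GW3965 and 290 FPKM in DMSO, the 10 endothelial markers to 244 and 214, and the 11 stellate cell markers to 101 and 94.9, in the same order of libraries. Cd14, at 99.3 FPKM in GW3965 and 111 FPKM in DMSO, and Cd68, at 93.9 and 74.9, made up most of the macrophage sum. Of the 23 macrophage markers, 7 stayed under 1 FPKM in both libraries. Of 10 lymphoid and granulocyte markers, 0 reached an FPKM of 1, and Ly6g was at 0 in both libraries. Among the 6 bile duct markers, Spp1 at 3373 FPKM in GW3965 and 4131 FPKM in DMSO made up nearly the whole sum, Sox9 stood at 14.7 FPKM in GW3965 and 14.0 FPKM in DMSO, Krt19 at 6.63 FPKM in GW3965 and 5.34 FPKM in DMSO, and Krt7, Epcam and Cftr were under 1 in both.

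Complement is a cascade of plasma proteases and binding proteins that marks particles for uptake, attracts leukocytes and forms pores in membranes. The classical pathway starts when C1q binds antibody or surfaces and the lectin pathway when mannose-binding lectins or ficolins bind sugars, while the alternative pathway amplifies C3 cleavage through factor B. All routes meet in C3, after which C5 to C9 assemble the membrane attack complex. Hepatocytes secrete most of the soluble factors of plasma, whereas C1q comes mainly from macrophages and related cells, and the receptors for the fragments C3a and C5a sit mainly on leukocytes.

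Transcript levels spanned a wide range. C3, the central component (ENSMUSG00000024164, chromosome 17, 57343397 to 57367559, mm9), was the most abundant of the 30 genes used, at 1196 FPKM in GW3965 and 1289 FPKM in DMSO. The level of Clu is unknown, so its place in this order is open. It ranked 61st among all genes in the GW3965 library and 52nd in the DMSO library. Factor B (Cfb) followed at 724 FPKM in GW3965 and 799 FPKM in DMSO. The C1 inhibitor Serping1 came next at 404 FPKM in GW3965 and 473 FPKM in DMSO. These 3 genes carried 77.4% of the summed member FPKM in GW3965 and 77.5% in DMSO, with Clu left out of the sum. Lowest of the hepatocyte-made genes was C6, a terminal component, which had 0.617 FPKM in GW3965 and 0.877 FPKM in DMSO. On this per-length scale C3 stood 1939-fold above C6 in GW3965 and 1470-fold in DMSO. The order of the 9 most abundant genes used was the same in both libraries, apart from Cfi and Mbl2, whose places were swapped.

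**Figure D1:**
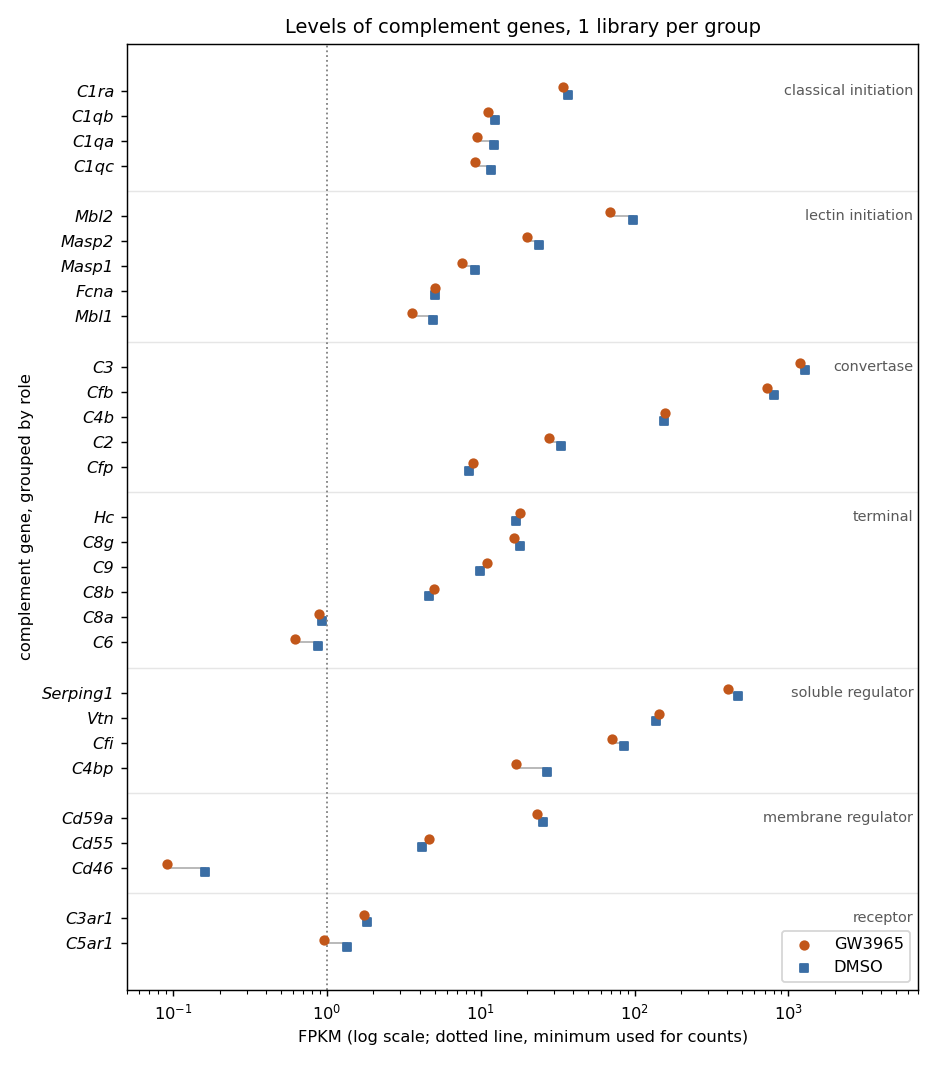
FPKM on a log axis for the 29 complement genes with a value above 0, grouped by role; orange circles are the GW3965 library and blue squares the DMSO library, 1 library each. Levels run from Cd46 at 0.0913 FPKM in GW3965 and 0.161 FPKM in DMSO to C3 at 1196 and 1289 FPKM, and C4bp and Mbl2 are the members at or above 10 FPKM whose points lie farthest apart.

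Ratios were small and mostly below 0. Each value in brackets after a pair of FPKM values is a log2 ratio, GW3965 over DMSO, with a pseudocount of 1 FPKM added to both, which shrinks the ratio of weakly expressed genes. The threshold for size was 1.5-fold, a log2 ratio of 0.58 in size. Of the 26 members at the minimum, 1 (C4bp) was at least 1.5-fold lower in GW3965, against 1.33% of all 11796 genes at the minimum. None was at least 1.5-fold higher, that is 0 members, against 1.02% of all genes. Among the 11010 protein-coding genes at the minimum those shares were 0.781% and 0.827%. Values below 0 were found for 18 of the 26 members, that is 69.2%, against 47.1% of all genes and 46.3% of protein-coding genes. The median was -0.13 for the members and 0.01 for all genes. One member, C5ar1, reached the minimum in DMSO only, so that a ratio below 0 was bound to follow. Below -0.33, the 5th percentile of all genes, lay 4 members, namely C4bp, Mbl2, Mbl1 and C1qa, against 5.0% of all genes.

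By source, the 17 measured hepatocyte-made genes had a median of -0.14, with 12 of them below 0, and those with a value summed to 2929 FPKM in GW3965 and 3223 FPKM in DMSO. The 7 genes made mainly by macrophages (C1qa, C1qb, C1qc, C3ar1, C5ar1, Fcna and Cfp) had a median of -0.13, with 5 of them below 0, and summed to 46.4 FPKM in GW3965 and 52.8 FPKM in DMSO. Over all genes at the minimum, 47.1% were below 0. Ranges of both sources overlapped, from -0.63 to 0.14 for hepatocyte-made genes and from -0.35 to 0.07 for macrophage-made genes. In a bulk library fewer cells of a type and less RNA per cell cannot be told apart. Without the 10 measured members that share a table locus or transcript sequence with another gene, the median of the remaining 16 was -0.24, as was that of the 10 hepatocyte-made genes among them, a setting chosen after the data were seen. The authors' deposited table called 0 members, against 0.285% of the 15090 genes tested in it. With 1 library on each side, such a test speaks of these libraries and not of the conditions.

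**Figure D2:**
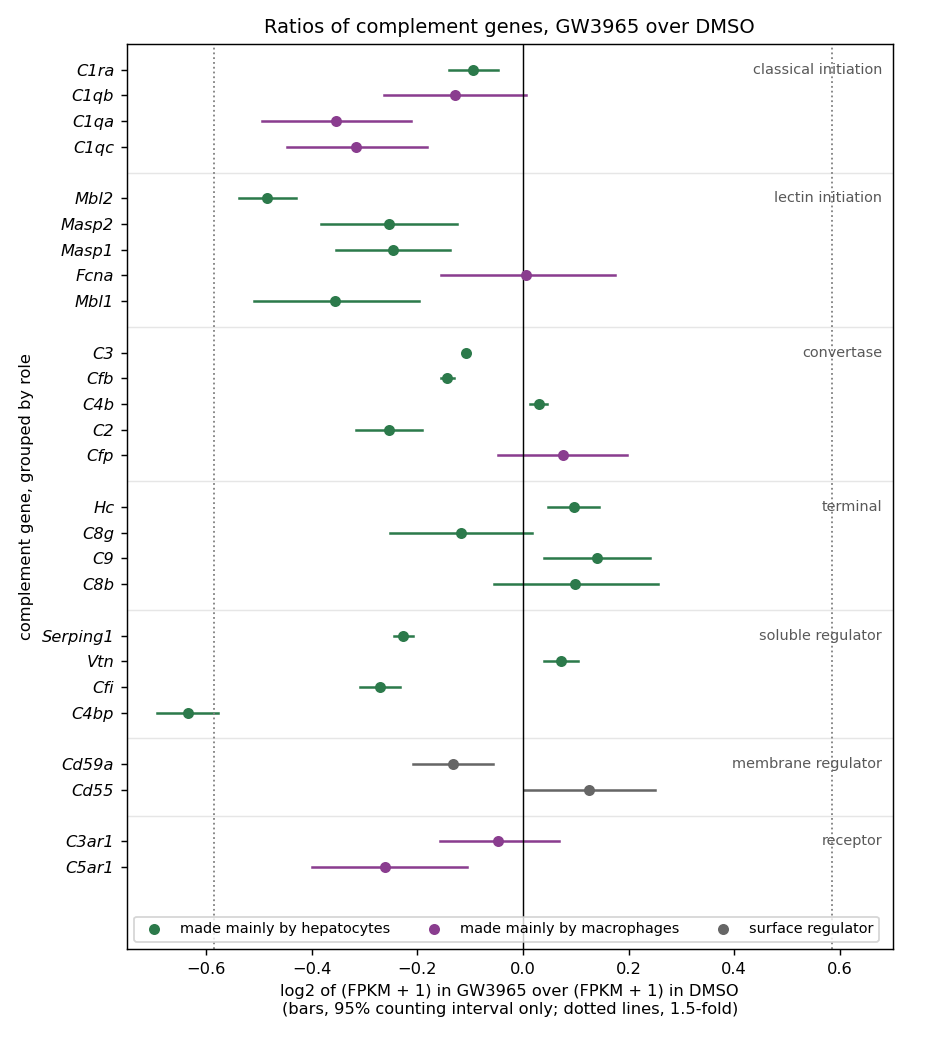
Log2 ratio of GW3965 over DMSO for the 26 complement genes at the minimum FPKM, grouped by role and coloured by main source; bars are 95% intervals from counting alone and dotted lines mark 1.5-fold. C4bp at -0.63 is the 1 gene past the line, the lectins Mbl2 and Mbl1 follow at -0.48 and -0.36, and C9 at 0.14 is the highest.

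In the classical pathway all 4 initiation genes were lower in GW3965, against 47.1% of all genes at the minimum. C1qa, C1qb and C1qc encode the 3 chains of C1q and lie side by side on chromosome 4 (136436044 to 136454718, mm9). C1qa had 9.37 FPKM in GW3965 and 12.3 FPKM in DMSO (-0.35). C1qc had 9.23 FPKM in GW3965 and 11.7 FPKM in DMSO (-0.32). C1qb had 11.1 FPKM in GW3965 and 12.3 FPKM in DMSO (-0.13). The 3 chains thus lay between 9.23 and 11.1 FPKM in GW3965 and between 11.7 and 12.3 FPKM in DMSO. From the estimated fragments, the FPKM ratio had a 95% counting interval of 0.686 to 0.852 for C1qa, 0.711 to 0.871 for C1qc and 0.820 to 1.004 for C1qb. Such intervals cover counting error only and leave out any difference between cultures. Over the 26 measured members, 15 intervals lay below 1, 5 above 1, and 6 included 1. The same count was not made over all genes, so it cannot be read as a trait of complement genes. At this depth small differences leave out 1, as for C4b with an interval of 1.009 to 1.033. C1ra, the protease C1r that C1q activates, had 34.2 FPKM in GW3965 and 36.6 FPKM in DMSO (-0.09). Its value is uncertain because 60.2% of its 25-base transcript words also occur in its paralog C1rb. Its partner protease C1s had 137 FPKM in GW3965 and 143 FPKM in DMSO (-0.06).

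Macrophage markers were set beside the C1q genes. Of the 16 markers at the minimum, 11 were below 0, against 47.1% of all genes, and the median was -0.12, or -0.05 with a pseudocount of 5. Of the 16, 0 passed 1.5-fold, against 1.33% of all genes lower and 1.02% higher. The lowest was the mannose receptor Mrc1, with 2.11 FPKM in GW3965 and 3.24 FPKM in DMSO (-0.45), below each of the 3 C1q genes. The highest was Cd68, a lysosomal protein, with 93.9 FPKM in GW3965 and 74.9 FPKM in DMSO (0.32). The Kupffer cell lectin Clec4f had 3.11 FPKM in GW3965 and 2.99 FPKM in DMSO (0.04). The part of the macrophage content in the C1q values was not tested. No macrophage marker of the list was at 0 in both libraries.

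The receptors were at low levels. C3ar1, the receptor for C3a, had 1.73 FPKM in GW3965 and 1.83 FPKM in DMSO (-0.05). C5ar1, the receptor for C5a, had 0.952 FPKM in GW3965 and 1.34 FPKM in DMSO (-0.26), with a counting interval of the FPKM ratio of 0.577 to 0.877. The ratio of C5ar1 was -0.45 with a pseudocount of 0.1 and -0.09 with a pseudocount of 5. Itgam and Itgb2, whose products form complement receptor 3, stood at 0.13 and 0.12.

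In the lectin pathway 4 of 5 genes were lower in GW3965, against 47.1% of all genes at the minimum, and the median ratio was -0.25. Masp2, 1 of these 4, has an uncertain level, as described below. Mbl2, mannose-binding lectin C (ENSMUSG00000024863, chromosome 19, 30307418 to 30314175, mm9), had 69.6 FPKM in GW3965 and 97.8 FPKM in DMSO (-0.48). The FPKM ratio was 0.712, with a counting interval of 0.686 to 0.740, and p was 0.00690 with q at 0.624 in the authors' deposited table, without a call. Its relative Mbl1, mannose-binding lectin A, had 3.58 FPKM in GW3965 and 4.87 FPKM in DMSO (-0.36). Both lectin genes were lower, although their levels differed widely.

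Masp1 and Masp2 encode the proteases that the lectins activate. Masp1 had 7.51 FPKM in GW3965 and 9.10 FPKM in DMSO (-0.25). Masp2 had 19.9 FPKM in GW3965 and 24.0 FPKM in DMSO (-0.25). The level of Masp2 is uncertain, since 53.6% of its transcript words also lie in the overlapping gene Tardbp, which had 144 FPKM in GW3965 and 139 FPKM in DMSO. Fcna, ficolin A, which in mice is made mainly by macrophages, had 5.04 FPKM in GW3965 and 5.01 FPKM in DMSO (0.01). Centring on the median of all genes turned its sign, to -0.005.

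The components of the convertases, the enzymes that cleave C3 and C5, had the highest summed FPKM of all roles among the genes used. That ranking leaves out Clu, a soluble regulator without a value. None of the 5 measured convertase genes passed 1.5-fold. C3 stood at -0.11 and Cfb at -0.14. With about 127391 fragments of Cfb in GW3965 and 113361 in DMSO, and more of C3, the counting intervals of the FPKM ratio were 0.924 to 0.932 for C3 and 0.898 to 0.913 for Cfb. C4b, the source of the classical and lectin convertase, had 159 FPKM in GW3965 and 155 FPKM in DMSO (0.03). C4b shares 53.9% of its transcript words with C4a, which had 18.7 FPKM in GW3965 and 16.2 FPKM in DMSO (0.20), so reads may be split between them. C2, the protease partner of C4b, had 27.6 FPKM in GW3965 and 33.1 FPKM in DMSO (-0.25). C2 and Cfb share 1 locus of the table (chromosome 17, 34993319 to 35033789, mm9), and the annotated gene Gm20547, which has no entry under that symbol in the table used here, holds 40.6% of the C2 words and 76.4% of the Cfb words. The split between C2 and Cfb is therefore uncertain. Properdin (Cfp), which stabilises the alternative convertase and comes mainly from leukocytes, had 8.92 FPKM in GW3965 and 8.42 FPKM in DMSO (0.07).

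Among genes at the minimum, the terminal components were the 1 role with a median above 0. It was 0.10 over 4 measured genes, 3 of them above 0, while 47.1% of all genes at the minimum lay below 0. The minimum left out the terminal genes C6 (-0.21) and C8a (-0.03), which both lay below 0. C9, which polymerises into the pore (ENSMUSG00000022149, chromosome 15, 6395327 to 6448744, mm9), had 10.9 FPKM in GW3965 and 9.83 FPKM in DMSO (0.14), with a counting interval of the FPKM ratio of 1.03 to 1.20. Hc, the mouse gene of C5, had 18.1 FPKM in GW3965 and 16.9 FPKM in DMSO (0.10). C9 and Hc had counting intervals above 1, but no estimate of the spread between cultures exists.

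The 3 chains of C8 stood at different levels. C8g had 16.4 FPKM in GW3965 and 17.8 FPKM in DMSO (-0.12). C8b had 4.96 FPKM in GW3965 and 4.57 FPKM in DMSO (0.10). C8a, a neighbour of C8b on chromosome 4, had 0.893 FPKM in GW3965 and 0.929 FPKM in DMSO. Neither C8g nor C8b nor C8a had a counting interval that left out 1. C6, with about 111 fragments in GW3965 and 127 in DMSO, had a counting interval of 0.541 to 0.916. C7, the remaining terminal component, had 0.0101 FPKM in GW3965 and was listed at 0 in DMSO.

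Among soluble regulators C4bp was the member with the lowest ratio. It encodes C4b-binding protein, which inactivates the classical and lectin convertase together with factor I (ENSMUSG00000026405, chromosome 1, 132531350 to 132558209, mm9). C4bp had 17.0 FPKM in GW3965 and 26.9 FPKM in DMSO (-0.63). The FPKM ratio was 0.631, with a counting interval of 0.605 to 0.658 from about 3851 fragments in GW3965 and 4919 in DMSO. In the authors' deposited table C4bp had p = 0.0162 and q = 0.946, without a call. With a pseudocount of 5 the ratio was -0.54, inside the 1.5-fold line.

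Factor I (Cfi), the protease for which C4b-binding protein is a cofactor, had 70.7 FPKM in GW3965 and 85.5 FPKM in DMSO (-0.27). Serping1, which blocks C1r, C1s and the lectin proteases, stood at -0.23. Vtn, vitronectin, which keeps the terminal complex out of membranes, had 145 FPKM in GW3965 and 138 FPKM in DMSO (0.07). Soluble regulators thus lay on both sides of 0, with 3 of 4 measured genes lower, against 47.1% of all genes at the minimum.

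Membrane regulators protect the cells that carry them. Cd59a, which blocks C9 assembly, had 23.0 FPKM in GW3965 and 25.3 FPKM in DMSO (-0.13). Cd55, which speeds the decay of convertases, had 4.59 FPKM in GW3965 and 4.12 FPKM in DMSO (0.13). Both share transcript words with a close paralog, 10.3% of Cd59a with Cd59b and 12.7% of Cd55 with Cd55b, which the table calls Daf2. Cd46, a cofactor for factor I that mice express mainly in testis, had 0.0913 FPKM in GW3965 and 0.161 FPKM in DMSO, from about 44.0 and 62.4 fragments. Cr1l, the rodent regulator Crry of the same kind, was far higher at 35.6 FPKM in GW3965 and 35.5 FPKM in DMSO (0.00).

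Upstream sequence was searched for every member that had an entry. RefSeq tables of mouse build GRCm38.p6 held a promoter for 23 of the 31 members, in 24 windows. For each window the 250 bases before the transcript start were searched on both strands. The LXR element DR4, a direct repeat of AGGTCA with 4 bases between the copies, was found in 0 of the 24 windows and in 0.0152% of all 32851 promoters. Its half-site AGGTCA, which is part of every DR4 match, was found in 5 (C3, C6, C8b, C1qc and Mbl2), against 14.0% of all promoters. The STAT element TTCNNNGAA was found in 2 (C8a and Masp2), against 7.02%. The C/EBP element TTGCNNAA was found in 2 (C3 and C9), against 9.56%. The HNF1 element was found in 1 (Hc), against 0.0609%, and the PU.1 element GAGGAAGT in 1 (C1qc), against 2.44%. A match is a run of letters and not a shown binding site, and a window without one says nothing about the factor.

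The windows of C4bp (chr1:130661619-130661868, minus strand), Mbl2 (chr19:30232678-30232927, plus strand), C9 (chr15:6445096-6445345, plus strand), C1qb (chr4:136886201-136886450, minus strand) and C1qc (chr4:136892915-136893164, minus strand) are shown 5′ to 3′ because they belong to the lowest and highest members and to the C1q genes. Capitals mark matches to the elements named above.
C4bp: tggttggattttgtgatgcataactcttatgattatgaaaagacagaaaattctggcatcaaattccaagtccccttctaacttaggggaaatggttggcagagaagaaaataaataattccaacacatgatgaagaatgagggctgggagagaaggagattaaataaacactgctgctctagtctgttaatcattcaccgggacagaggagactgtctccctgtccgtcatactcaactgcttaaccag
Mbl2: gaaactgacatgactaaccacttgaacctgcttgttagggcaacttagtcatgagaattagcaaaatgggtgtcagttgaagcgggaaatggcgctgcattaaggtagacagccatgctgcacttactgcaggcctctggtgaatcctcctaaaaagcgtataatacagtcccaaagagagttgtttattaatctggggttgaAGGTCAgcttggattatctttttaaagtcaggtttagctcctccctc
C9: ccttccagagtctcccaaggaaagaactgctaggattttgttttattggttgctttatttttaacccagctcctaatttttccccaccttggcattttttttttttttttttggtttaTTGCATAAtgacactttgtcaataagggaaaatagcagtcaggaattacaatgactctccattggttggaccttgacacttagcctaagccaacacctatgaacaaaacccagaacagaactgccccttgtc
C1qb: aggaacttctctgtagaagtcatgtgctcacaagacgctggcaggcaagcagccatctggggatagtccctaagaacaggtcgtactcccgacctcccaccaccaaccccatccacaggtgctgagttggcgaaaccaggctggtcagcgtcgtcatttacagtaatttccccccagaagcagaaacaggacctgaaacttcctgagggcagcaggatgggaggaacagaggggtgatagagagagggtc
C1qc: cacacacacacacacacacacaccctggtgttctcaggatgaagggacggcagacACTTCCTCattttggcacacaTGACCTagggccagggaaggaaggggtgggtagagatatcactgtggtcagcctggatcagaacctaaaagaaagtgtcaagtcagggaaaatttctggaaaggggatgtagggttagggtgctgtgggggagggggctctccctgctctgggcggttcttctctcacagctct
In C4bp and C1qb no capitals appear. The capitals of Mbl2 are a half-site at position -47 from the start, those of C9 a C/EBP match at -132, and those of C1qc a PU.1 match at -195 and a half-site at -174.

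The rest of the pathway was described through 41 further symbols, of which 33 were in the table and 18 reached the minimum. Of these 18, 11 were below 0, against 47.1% of all genes, and the median was -0.04. In either direction 0 passed 1.5-fold, against 1.33% of all genes lower and 1.02% higher. Cpn1, the catalytic chain of carboxypeptidase N, which inactivates C3a and C5a, had 45.1 FPKM in GW3965 and 52.8 FPKM in DMSO (-0.22). C1rl, a relative of C1r, stood at -0.18. C1qtnf1, a C1q-like secreted protein, had 0.749 FPKM in GW3965 and 1.15 FPKM in DMSO (-0.30), the lowest ratio among the 18 genes at the minimum. Like C5ar1 it reached the minimum in DMSO only, so that its place among the 11 below 0 was fixed by the minimum.

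Other genes of that list lay above or close to 0. Colec12, a scavenger receptor with a collectin domain, had 17.1 FPKM in GW3965 and 13.6 FPKM in DMSO (0.31). Cd93, a surface protein once described as a C1q receptor, had 15.5 FPKM in GW3965 and 13.9 FPKM in DMSO (0.14). The pentraxins Apcs and Crp, which can bind C1q, stood at -0.07 and 0.05, and C1qbp and Cd59b at -0.00 and -0.01. Calr, the chaperone calreticulin, stood at -0.09.

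**Figure D3:**
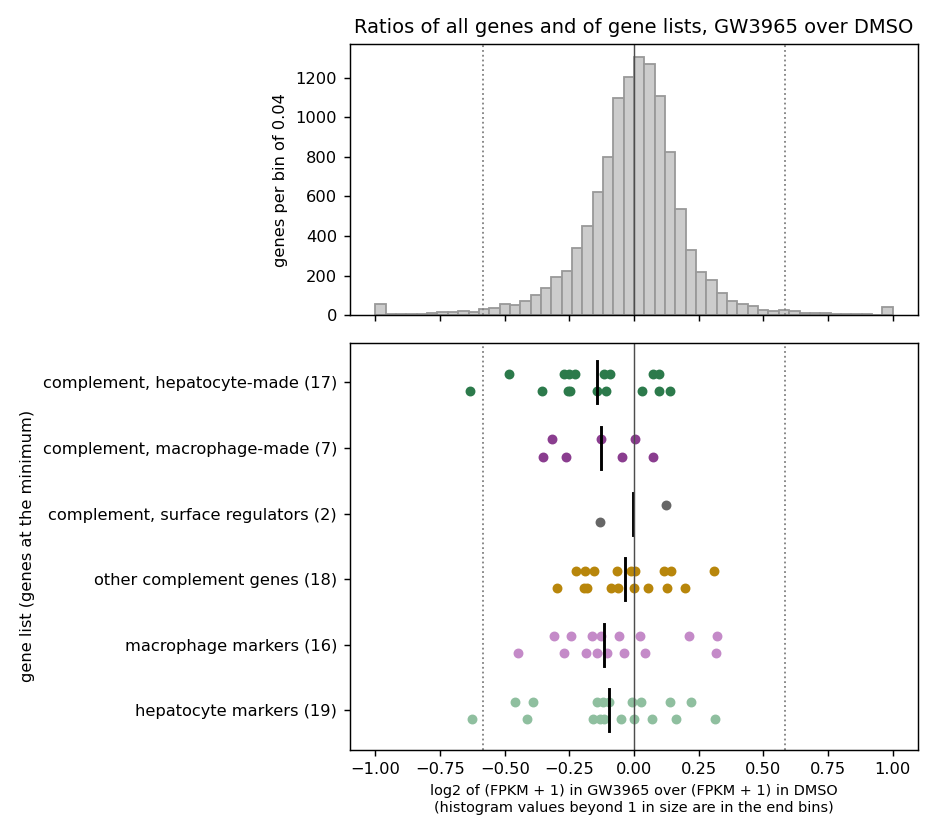
Upper panel, number of genes by log2 ratio of GW3965 over DMSO for the 11796 genes at the minimum FPKM; lower panel, each point is 1 gene of the list named at the left, and black bars are medians. Medians are -0.14 for hepatocyte-made, -0.13 for macrophage-made and -0.04 for other complement genes, beside -0.12 for macrophage markers and -0.10 for hepatocyte markers.

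Hepatocyte markers were set beside the hepatocyte-made genes. Of 19 measured markers, 12 were below 0, against 47.1% of all genes. Their median was -0.10, with a range from -0.63 for Ahsg to 0.31 for Cps1. Alb and Trf, like Clu, were left out for the HIDATA mark. Endothelial markers had a median of 0.19, with 2 of 10 below 0 and a range from -0.66 to 0.38. The lowest, the lectin Clec4g, had 0.996 FPKM in GW3965 and 2.14 FPKM in DMSO and was the 1 endothelial marker past 1.5-fold, although it too reached the minimum in DMSO only. Stellate markers had a median of 0.15, with 2 of 10 measured genes below 0, a range from -0.13 to 0.37 and 0 past 1.5-fold. What part these lists have in the complement values was not tested.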

How the data were processed

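Per the labels, total RNA of 1 GW3965 and 1 DMSO sample went into TruSeq libraries. The authors' tools were Cuffdiff, Cufflinks 2.0.2, TopHat2 2.0.6 and CASAVA, with builds NCBIM37 and mm9, per the submitters' processing notes. Settings and strand handling were not given in the sources used here. In the table the deposited FPKM values, 1 column per library, were scaled by the authors. The deposited p-value and q-value are the authors' own, as is their test statistic, a score used for nothing else here.

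Of 36808 genes, 7 marked HIDATA were left out. Ratios used a pseudocount of 1, counts a minimum FPKM of 1 in either library and a size of 1.5-fold. As neither group was replicated, p-values and SDs of the ratios were not calculated. All members were named, further complement genes from an FPKM of 1, except some that are not reported here. Members and lists were chosen with earlier results of these data known.

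Library depth came from the 1-fragment step among genes with 1 transcript in GENCODE M21. Fragments were estimated at the shortest protein-coding transcript of its basic set, a choice that lowers the counts and widens the exact 95% binomial intervals. Those intervals still take fragments as independent and leave out duplicates and the split of reads between genes, so they can be too narrow. Reads carry no molecular identifiers. Shared sequence was measured in words of 25 bases. Starts in the table were taken as 0-based, a reading under which 58.5% of 19846 single-gene loci matched the length in GENCODE (1.53% under the other), and 1 was added. The depth estimate, the size rule and the interval were tested on simulated data with counting error only. Intervals there were built from the true counts and depths. The estimate of fragments, spread between cultures and shared reads were therefore not tested. Alternatives were other pseudocounts, minimums and thresholds, centring, scaling and the authors' tested genes. Software was matplotlib 3.10.9, scipy 1.17.1, pandas 2.3.3 and numpy 2.4.6 under Python 3.11.15.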

Additional observations from a re-analysis of the deposited data

How the results depend on the processing

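The count of members at least 1.5-fold lower was 1 and became 0 with a pseudocount of 5 and at a 2-fold threshold, since C4bp lies close to the line. The count higher and that of other complement genes stayed at 0 under every alternative run. A pseudocount of 5, a minimum FPKM of 5, a 2-fold threshold and the authors' tested genes could not have raised a count of 0. Settings were changed 1 at a time and not in combination. The median of the members was -0.13 and that of hepatocyte-made members -0.14, and both were -0.24 without members that share a locus or sequence, a setting added after the data were seen. The median of macrophage markers lay between -0.15 and -0.05 over the alternatives run. Of 26 measured members 0 changed sign with pseudocounts of 0.1 or 5, with scaling to 1 sum or among the authors' tested genes, and 1 (Fcna) did on centring. No paired analysis was possible because neither condition was replicated. Depth limits Cd46, C6 and C8a, and no setting supplies the missing spread between cultures.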

Other observations

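Several complement factors are acute-phase proteins, which the liver makes more of in inflammation, and 21 other acute-phase genes were described beside them. Of 20 at the minimum, 15 were below 0, against 47.1% of all genes, with a median of -0.07. At least 1.5-fold lower in GW3965 were 3, against 1.33% of all genes. These were Hamp, the iron hormone hepcidin, and the fibrinogen chains Fga and Fgg. Hamp had 67.9 FPKM in GW3965 and 186 FPKM in DMSO (-1.44). Fga had 367 FPKM in GW3965 and 591 FPKM in DMSO (-0.69), and Fgg had 199 FPKM in GW3965 and 320 FPKM in DMSO (-0.68). The serum amyloids Saa1 and Saa2, the classical markers of that response, stood at -0.07 and 0.11. Saa3 and Saa4 of the same family were lower in GW3965. Saa3 had 296 FPKM in GW3965 and 422 FPKM in DMSO (-0.51). Saa4 had 11.8 FPKM in GW3965 and 18.2 FPKM in DMSO (-0.58), just inside the 1.5-fold line. Of 11 genes of interleukin-6 signalling, 10 were at the minimum and 8 of these were below 0, with a median of -0.06. Of the 10, 0 passed 1.5-fold, against 1.33% of all genes lower and 1.02% higher.

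Carboxypeptidase N has a catalytic chain, Cpn1, and a regulatory chain, Cpn2, which stood at far different levels. Cpn2 was under the minimum, at 0.290 FPKM in GW3965 and 0.693 FPKM in DMSO. Its log2 ratio was -0.39 and its FPKM ratio had a 95% counting interval of 0.325 to 0.534. In the authors' deposited table Cpn2 had p = 0.000687 and q = 0.145, without a call. Susd4, a membrane regulator of complement, was also under the minimum, at 0.656 FPKM in GW3965 and 0.964 FPKM in DMSO, with a counting interval of 0.511 to 0.915. Both genes were picked after their values were seen.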
